A study of Mus musculus with 8 samples.

Results

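The 38 genes described here are targets of the tumour suppressor p53, with Trp53, the gene that encodes it, counted among them, read by symbol from a deposited table of 31574 gene rows. All 38 were found, and all 38 passed the filter that a row have at least 2 of the 8 libraries above the floor of the table. The RNA came from acute myeloid leukaemia (AML) cells of C57BL/6 mice, taken from femur and tibia marrow, and the series text calls them c-kit+. The 8 libraries form 4 groups of 2 that combined the Ezh1 genotype with deletion of Ezh2. They were Ezh1+/+ after corn oil, Ezh1+/+ after tamoxifen, Ezh1-/- after corn oil and Ezh1-/- after tamoxifen. The oil groups carry Ezh2 flox/flox in the series text and Ezh2+/+ in the sample labels, and the tamoxifen groups carry deleted Ezh2. Tamoxifen was injected into the peritoneum at 10 mg/kg/day for 5 doses, and cells were taken 7 days after treatment. Below, the groups are called Ezh1-present oil, Ezh1-present tamoxifen, Ezh1-null oil and Ezh1-null tamoxifen, with replicates 1 and 2.

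The transcription factor p53 is stabilised when DNA damage, oncogene signalling or other stress releases it from the ubiquitin ligase Mdm2. It binds pairs of a short DNA motif near its target genes, which then slow the cell cycle, start apoptosis, repair DNA or adjust metabolism. Several targets, Mdm2 among them, feed back to switch p53 off. Polycomb repressive complex 2 silences genes by methylating histone H3 at lysine 27, and either Ezh1 or Ezh2 supplies its enzyme activity. Loss of p53 function is known in AML as a feature of disease that resists chemotherapy.

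The labels limit what the groups can model. No label names the Cre driver, says that replicates are separate animals or leukaemias, or explains the Moz in the sample titles, so the p values measure only how far these libraries spread, which may be technical. Tamoxifen and Ezh2 deletion went together in every library and cannot be told apart. The Ezh1-null and Ezh1-present leukaemias may also differ in origin, which cannot be told apart from the genotype. In whole-library RNA, fewer cells of a type and less RNA per cell cannot be told apart either. With 2 libraries against 2, the smallest two-sided p of an exact permutation test is 0.333, so tests come from 1 limma model across all 18051 rows that passed the filter, and "called" means a Benjamini-Hochberg adjusted p under 0.05 in it.

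Values are log2 normalized read counts set against each gene's median across the 8 libraries, so a value of 1 is a doubling over that median, and levels of different genes cannot be compared. Within a group, the SD of a gene between its 2 libraries had a median of 0.115 to 0.142. Total counts per library cannot be read from the table. A single read was worth a normalized value of 0.747 in the deepest library (Ezh1-present tamoxifen 1) and 1.24 in the shallowest (Ezh1-null oil 1). Ezh1 lay between 1.55 and 1.71 in the 4 Ezh1-present libraries and between -1.94 and -1.55 in the 4 Ezh1-null libraries, as the labels say. Ezh2 changed by -0.18 ± 0.08 (SE) after tamoxifen with Ezh1 present (adjusted p = 0.293) and by -0.47 ± 0.08 without it (adjusted p = 0.0554). Ezh2 was called lower without Ezh1 in oil (-0.31, adjusted p = 0.0492), a call lost without any 1 library (0.0630 to 0.164), and after tamoxifen (-0.60, adjusted p = 0.0200), lost without any of the 4 tamoxifen libraries (0.0564 to 0.0826). It was also called lower after combined loss (-0.78, adjusted p = 0.00582), a call kept in each alternative run. The labels do not say which exons are deleted, and a value for the whole gene also counts the rest of the transcript, so Ezh2 checks little. None of the 11 markers of c-kit+ myeloid progenitors, Kit and Ptprc among them, had 2 libraries tied at the floor, but they moved with the Ezh1 genotype. Their mean ran from -0.73 to -0.53 in Ezh1-present oil, -0.27 to -0.21 in Ezh1-present tamoxifen, 0.27 to 0.34 in Ezh1-null oil and 0.11 to 0.16 in Ezh1-null tamoxifen. Of the 11, 6 were called higher and 1 lower without Ezh1, in oil and again after tamoxifen, and 6 higher and 2 lower after combined loss. Of all rows, 24.9%, 12.2% and 23.4% were called in these comparisons, in that order.

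The p53 targets did not move as a block. In Ezh1-null leukaemia cells, Zmat3, Plk2, Ephx1, Sesn2 and Ccng1 rose after tamoxifen, where 3.4% of all rows were called. No target was called when Ezh1 was present, where 0.903% of all rows were. A limma test of the difference between these changes called 0 of the 38 (lowest adjusted p = 0.0546). Without Ezh1 the oil level was low: Zmat3, Plk2, Ephx1, Sesn2 and Ak1 were lowest in Ezh1-null oil, below the Ezh1-present oil libraries. Trp53 itself and Mdm2 were called in no comparison. Of the 38 genes, 22 (57.9%) were called in at least 1 of the 6 comparisons, which share libraries, and 16 in none, against 33.8% of all rows called in at least 1. The Ezh1-null oil group held the lowest mean of its gene for 18 of the 38, where 26.8% of all rows had their single lowest mean there. The Ezh1-null tamoxifen group held the highest for 16, where 21.3% of all rows had it. Over the 38 genes, the median value was -0.17 and -0.12 in the Ezh1-present oil libraries, 0.07 and 0.04 in Ezh1-present tamoxifen, -0.19 and -0.17 in Ezh1-null oil, and 0.11 and 0.14 in Ezh1-null tamoxifen. Both tamoxifen groups lay above both oil groups on this median, with no overlap.

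**Figure D1:**
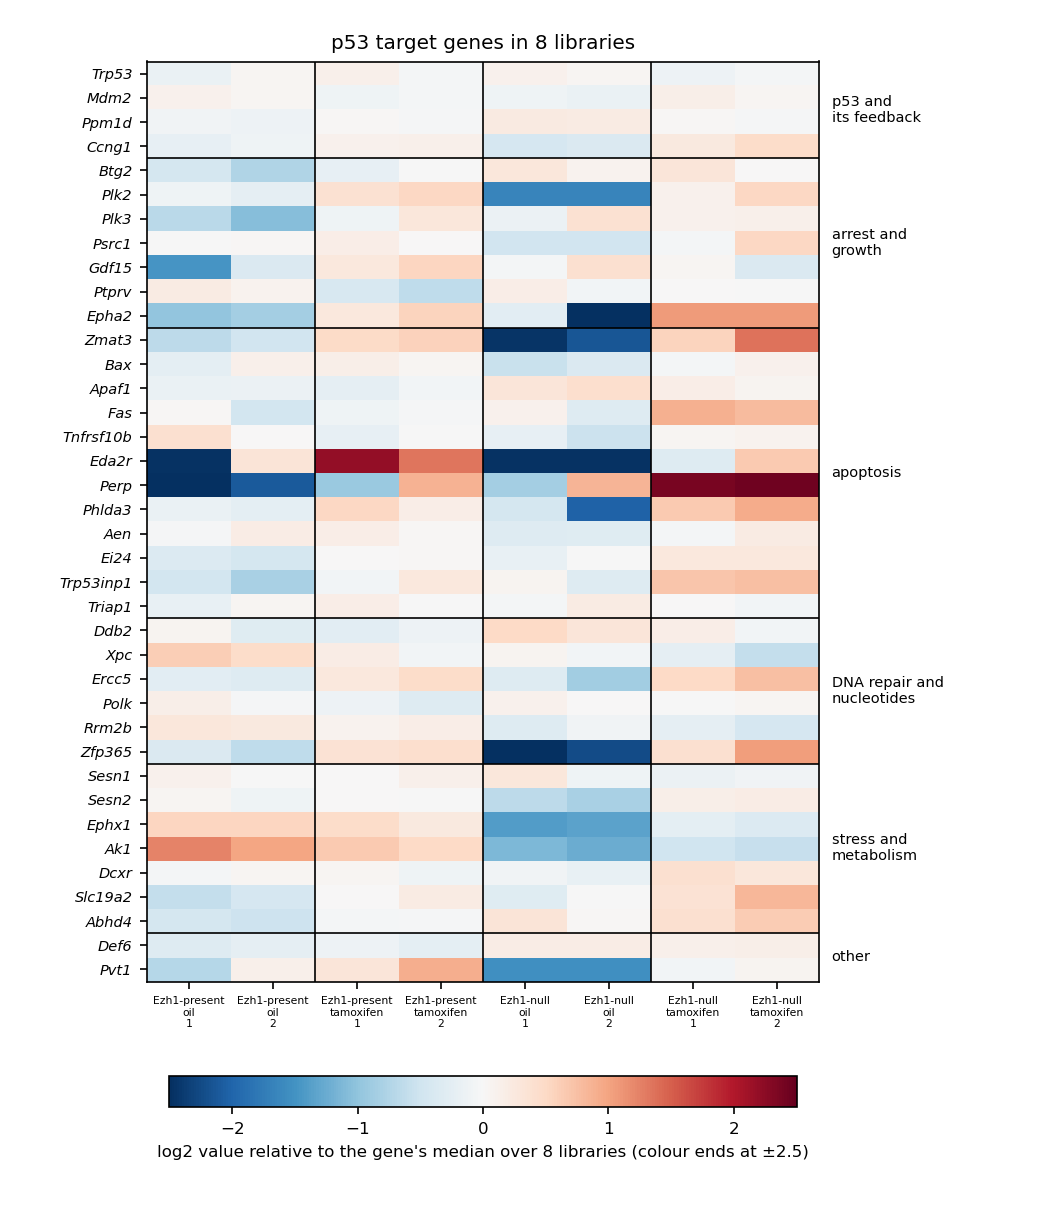
The 38 genes (rows, grouped by role) in the 8 libraries (columns); colour is the log2 value relative to the gene's median over the 8 libraries, and the scale ends at 2.5 in either direction, so Zfp365 at -4.43, Epha2 at -3.41 and Perp at -2.60 lie beyond it. Zmat3, Plk2, Zfp365, Ephx1, Ak1, Pvt1 and Eda2r are below -1 in both Ezh1-null oil libraries, and Perp is above 2 in both Ezh1-null tamoxifen libraries.

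To show the promoters behind the calls, the RefSeq window from 250 bases before to 50 bases after the start (300 bases, build GRCm38.p6) is printed for the 4 genes with a window that had the smallest adjusted p after tamoxifen without Ezh1. Windows were found for 29 of the 38 genes, 38 windows in all, and none for Zmat3, Perp, Rrm2b, Xpc, Tnfrsf10b, Ddb2, Pvt1, Trp53inp1 and Ptprv. Each is printed 5′ to 3′ in the gene's direction, and capitals mark an exact p53 decamer, the 10-base unit that occurs as a pair in a full p53 response element.
Plk2, chr13:110394794-110395093 on the plus strand: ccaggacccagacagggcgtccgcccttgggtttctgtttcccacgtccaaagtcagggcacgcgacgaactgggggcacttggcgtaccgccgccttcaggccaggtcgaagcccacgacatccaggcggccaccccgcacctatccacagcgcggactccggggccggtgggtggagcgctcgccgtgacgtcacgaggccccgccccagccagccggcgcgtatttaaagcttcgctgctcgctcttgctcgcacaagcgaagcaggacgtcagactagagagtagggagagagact
Ephx1, chr1:181017520-181017819 on the minus strand: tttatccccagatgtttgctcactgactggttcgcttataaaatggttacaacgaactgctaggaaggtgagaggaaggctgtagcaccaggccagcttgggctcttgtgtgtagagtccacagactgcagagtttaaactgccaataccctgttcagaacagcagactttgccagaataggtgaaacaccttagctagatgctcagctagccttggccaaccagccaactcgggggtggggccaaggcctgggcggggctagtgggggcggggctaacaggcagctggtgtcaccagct
Sesn2, chr4:132510407-132510706 on the minus strand: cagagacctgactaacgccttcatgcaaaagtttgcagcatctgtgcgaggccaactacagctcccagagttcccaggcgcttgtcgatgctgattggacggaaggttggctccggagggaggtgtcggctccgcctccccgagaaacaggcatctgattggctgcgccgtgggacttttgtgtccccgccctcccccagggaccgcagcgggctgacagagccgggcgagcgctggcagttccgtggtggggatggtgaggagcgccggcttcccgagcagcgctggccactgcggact
Ccng1, chr11:40755237-40755536 on the minus strand: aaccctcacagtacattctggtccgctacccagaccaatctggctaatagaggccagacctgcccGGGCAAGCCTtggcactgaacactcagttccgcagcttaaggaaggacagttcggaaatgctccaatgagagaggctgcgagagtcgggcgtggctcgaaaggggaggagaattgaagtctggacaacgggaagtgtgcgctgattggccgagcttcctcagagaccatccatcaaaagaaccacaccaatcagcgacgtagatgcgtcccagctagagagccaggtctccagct
Of these windows, that of Ccng1 holds a decamer, GGGCAAGCCT, which starts 185 bases before the gene's start. The exact decamer was searched on both strands and stood in 28.9% of the 38 windows (11 windows of 10 genes), against 8.36% of all 32851 windows of the table. The other genes with one were Abhd4, Aen, Bax, Ei24, Mdm2, Polk, Ppm1d, Sesn1 and Trp53. Mdm2 carried GAACTTGCCT 186 bases before its start. Trp53 carried GGACTTGCCC 75 bases before the start. A pair of exact decamers 0 to 13 bases apart was in 0 of the 38 windows and in 0.0731% of all windows. These matches describe letters in these windows only. Apart from Ccng1, Abhd4, Ei24 and Ppm1d, the genes with a decamer in the window were called in no comparison.

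Tamoxifen was compared with oil first with Ezh1 present, which asks what deletion of Ezh2 does when Ezh1 can still act. None of the 38 targets was called, with 0.903% of all tested rows called in either direction. At an unadjusted p under 0.05 the limma model gave 17 of the 38 genes (44.7%), against 20.6% of all rows. The lowest adjusted p was 0.0891, for the phosphatase gene Ptprv, at 0.21 and 0.09 after oil and -0.40 and -0.64 after tamoxifen, a change of -0.67 ± 0.13. The median change was 0.15 over the 38 genes and 0.01 over all rows, and 28 of the 38 changes were above 0, against 51.9% of all rows. The 2 oil libraries lay wholly below the 2 tamoxifen libraries for 18 genes, where 28.5% of all rows did so, and wholly above for 8, where 25.3% did.

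The same comparison was then made without Ezh1, which asks what Ezh2 deletion does when no second methyltransferase is left. Here 5 targets rose and 0 fell, where 3.4% of all rows were called and 3.1% were higher. Zmat3 rose 9.57-fold, Plk2 3.90-fold, Ephx1 2.11-fold, Sesn2 1.86-fold and Ccng1 1.68-fold. At an unadjusted p under 0.05 the model gave 22 of the 38, where 17.9% of all rows lay. The median change was 0.46 over the 38 genes and 0.00 over all rows, and 24 changes were above 0, against 48.3% of all rows. The oil libraries lay wholly below the tamoxifen libraries for 24 genes, where 24.5% of all rows did so, and wholly above for 6, where 24.8% did. Zmat3 and Plk2 stayed called when any single library was left out. Sesn2 lost its call without any of Ezh1-null oil replicate 2 and the 2 Ezh1-null tamoxifen libraries (adjusted p = 0.0718 to 0.0986), Ephx1 without any of the 4 Ezh1-null libraries (0.0562 to 0.0752), and Ccng1 without any of the 8 (0.0731 to 0.126). With only the Ezh1-null libraries in the limma model, adjusted p was 0.104 for Zmat3, 0.0857 for Plk2 and 0.0915 for Sesn2. It was 0.0583 for Ephx1 and 0.151 for Ccng1, and Pvt1 was then the 1 target called (0.0405). After quantile normalization the limma model no longer called Ephx1 (adjusted p = 0.152) or Ccng1 (0.0690). Zmat3, Plk2 and Sesn2 stayed called there, and Ercc5 was added (0.0445). Without Ezh1-null oil replicate 1 there were 7 calls, which added Zfp365, Phlda3, Epha2 and Ercc5 (0.0149 to 0.0448).

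**Figure D2:**
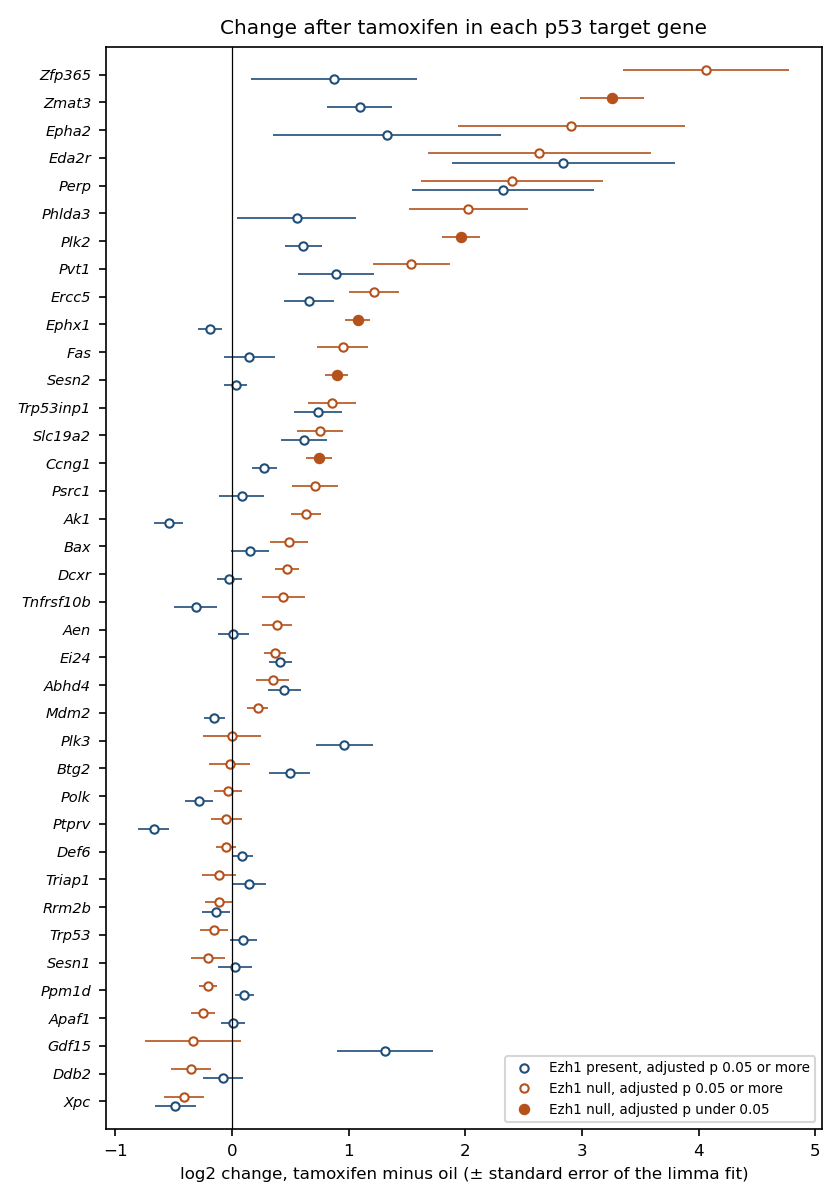
Change after tamoxifen for each of the 38 genes (rows), as log2 of tamoxifen minus oil with its standard error, with Ezh1 present (blue) and without Ezh1 (orange); filled points have an adjusted p under 0.05. Filled points are Zmat3, Plk2, Ephx1, Sesn2 and Ccng1, all without Ezh1, and the orange point lies to the right of the blue one for 25 genes.

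The tamoxifen comparisons with and without Ezh1 share no library, and the difference between them was tested as an interaction. None of the 38 was called, where 0.476% of all rows were. At an unadjusted p under 0.05 the limma model gave 15 of the 38 (39.5%), against 14.9% of all rows. The lowest adjusted p was 0.0546, for Ephx1, whose change was larger without Ezh1 by 1.27 ± 0.15. Plk2 had a difference of 1.35 ± 0.23 (adjusted p = 0.100), Sesn2 0.87 ± 0.14 (0.0990), Ak1 1.18 ± 0.18 (0.0828) and Zmat3 2.16 ± 0.39 (0.116). So the calls without Ezh1 are not shown by this test to differ from the changes with Ezh1 present. Both changes were above 0 for 19 genes and both below 0 for 5. For 9 genes only the change with Ezh1 present was above 0, and for 5 only the change without Ezh1. The change was larger without Ezh1 for 25 of the 38, against 49.7% of all rows, and the median difference was 0.29, against -0.00 over all rows.

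Loss of Ezh1 was compared in the oil libraries, where Ezh2 was not deleted. Here 6 targets were higher without Ezh1 and 8 lower, where 24.9% of all rows were called, 12.5% higher and 12.4% lower. The lower genes were Zfp365 (7.19-fold), Ak1 (4.90-fold), Ephx1 (3.74-fold), Zmat3 (3.32-fold), Plk2 (2.80-fold), Pvt1 (2.37-fold), Sesn2 (1.62-fold) and Rrm2b (1.39-fold). The higher genes were Plk3 (1.98-fold), Btg2 (1.72-fold), Abhd4 (1.58-fold), Apaf1 (1.44-fold), Def6 (1.38-fold) and Ppm1d (1.25-fold). The median change was -0.17 over the 38 genes and -0.04 over all rows. Without Ezh1-null oil replicate 2 that median of the 38 was -0.0076. Of the 38, 21 had an unadjusted p under 0.05, against 39.8% of all rows. The Ezh1-null libraries lay wholly above the Ezh1-present ones for 12 genes, where 31% of all rows did so, and wholly below for 18, where 34.7% did. Plk2, Ak1 and Ephx1 stayed called in each alternative run. The other 11 calls were lost when at least 1 of the 8 libraries was left out. Rrm2b and Ppm1d lost theirs without any library (adjusted p = 0.0628 to 0.158 and 0.0537 to 0.134), and Apaf1 and Def6 without any of the 4 oil libraries (0.0563 to 0.0957 and 0.0586 to 0.0910). Zmat3 lost its call without Ezh1-present oil replicate 1 (0.0602) or 2 (0.0641) or Ezh1-null oil replicate 1 (0.0588), and Sesn2 without Ezh1-present oil replicate 1 (0.0530). Btg2 kept its call only without either Ezh1-null tamoxifen library (0.0511 to 0.119 otherwise), Zfp365 only without either Ezh1-null oil library (0.0734 to 0.156 otherwise), and Plk3 only without Ezh1-null oil replicate 1 (0.0555 to 0.154 otherwise). Pvt1 kept its call only without Ezh1-present oil replicate 1 (0.0560 to 0.156 otherwise), and Abhd4 without Ezh1-null oil replicate 2 or either Ezh1-null tamoxifen library (0.0534 to 0.111 otherwise).

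Loss of Ezh1 was then compared after tamoxifen, among libraries with deleted Ezh2. Ak1 and Ephx1 were called, both lower without Ezh1, so 0 of the 38 were higher and 2 lower, where 12.2% of all rows were called, 6.77% higher and 5.44% lower. Ak1 was 2.17-fold lower and Ephx1 1.55-fold lower. The median change was 0.21 over the 38 genes and -0.00 over all rows. Of the 38 changes, 25 were above 0, against 49.3% of all rows. At an unadjusted p under 0.05 the limma model gave 13 of the 38, where 32.3% of all rows lay. The Ezh1-null libraries lay wholly above the Ezh1-present ones for 20 genes, where 30.7% of all rows did so, and wholly below for 9, where 31.8% did. Ak1 lost its call without Ezh1-present tamoxifen replicate 1 (adjusted p = 0.0525) or either Ezh1-null tamoxifen library (0.0626 and 0.0663), and Ephx1 kept its call only when Ezh1-present tamoxifen replicate 2 was left out (0.0537 to 0.106 otherwise).

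Loss of both enzymes was compared with neither lost, as Ezh1-null tamoxifen against Ezh1-present oil. Of the targets, 12 were higher and 4 lower, where 23.4% of all rows were called, 13.2% higher and 10.2% lower. The higher genes included 5 of the 12 apoptosis genes: Perp, Zmat3, Trp53inp1, Fas and Ei24. The others were Slc19a2, Abhd4, Plk3, Ercc5, Btg2, Ccng1 and Def6. The lower genes were Ak1, Xpc, Ephx1 and Rrm2b. The median change was 0.32 over the 38 genes and -0.00 over all rows. Of the 38 changes, 29 were above 0, against 49.1% of all rows. At an unadjusted p under 0.05 the limma model gave 19 of the 38, where 38.7% of all rows lay. The libraries with combined loss lay wholly above those with neither lost for 20 genes, where 33.8% of all rows did so, and wholly below for 6, where 32.9% did. Ak1 and Ephx1 stayed called in each alternative run. The number of genes called fell to 5 when the first Ezh1-present oil library was left out and to 2 without the second, and to 7 and 3 without the first and the second Ezh1-null tamoxifen library. For the other 14 genes the adjusted p of a lost call ran from 0.0510 (Abhd4) to 0.160 (Plk3), and Btg2 lost its call without any library (0.0558 to 0.142). Zmat3 lost its call without either Ezh1-present oil library (0.0924 and 0.0736) and with only the compared groups (0.0815). The comparisons in oil and after tamoxifen share libraries with this one and with the tamoxifen comparisons, so their calls are given side by side and are not counted as agreeing.

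**Figure D3:**
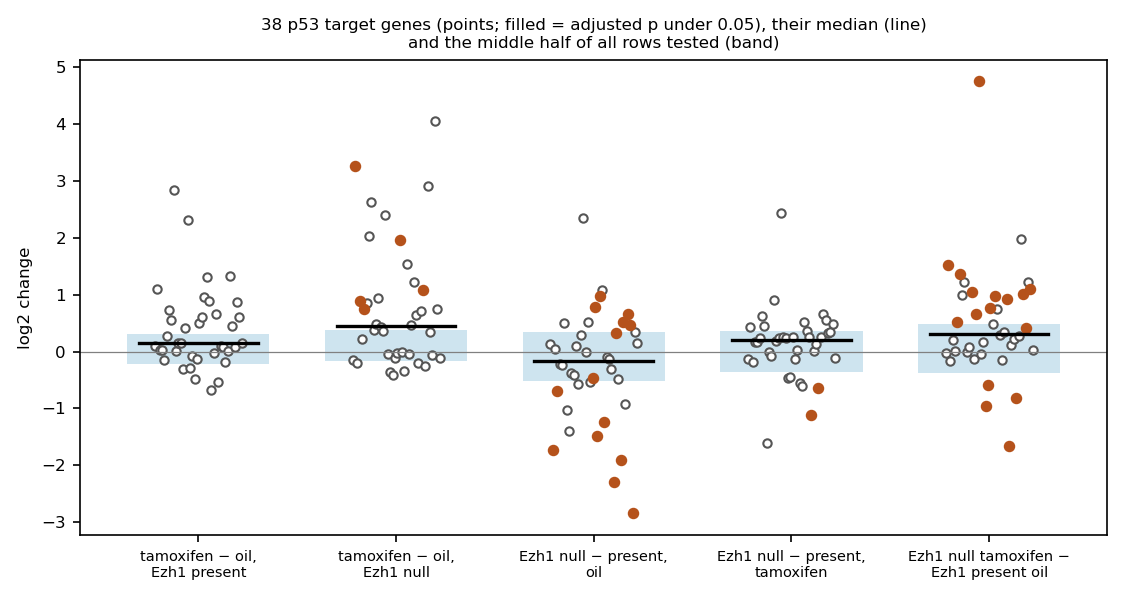
The 38 genes (points) in 5 comparisons (columns), as log2 change; filled points have an adjusted p under 0.05, the line is the median of the 38 and the band spans the middle 50% of all 18051 rows. The median of the 38 is 0.46 after tamoxifen without Ezh1 and -0.17 for Ezh1 loss in oil (-0.0076 without Ezh1-null oil replicate 2), and the highest point, Perp at 4.75, is in the comparison of combined loss with neither lost.

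Among p53 and its feedback genes, Trp53 (gene ID 22059, mm10 chr11:69580359-69591873) lay at -0.17 and 0.06 in Ezh1-present oil, 0.13 and -0.04 in Ezh1-present tamoxifen, 0.10 and 0.04 in Ezh1-null oil and -0.12 and -0.05 in Ezh1-null tamoxifen. All 8 libraries lay within that narrow span, although the Ezh1-null pairs did not overlap. Its change was 0.10 ± 0.12 after tamoxifen with Ezh1 present (adjusted p = 0.681) and -0.16 ± 0.12 without (adjusted p = 0.564), and combined loss differed from neither lost by -0.03 (95% interval -0.33 to 0.27). Mdm2, the ligase that degrades p53, changed by -0.15 ± 0.09 after tamoxifen with Ezh1 present (adjusted p = 0.398) and by 0.22 ± 0.09 without (adjusted p = 0.286). Combined loss differed from neither lost in Mdm2 by 0.01 (95% interval -0.21 to 0.24). Ccng1, cyclin G1, which acts on Mdm2 through protein phosphatase 2A (gene ID 12450, mm10 chr11:40748552-40755286), lay at -0.21 and -0.11, 0.11 and 0.13, -0.43 and -0.35, and 0.24 and 0.47 in the 4 groups in the same order. Its tamoxifen libraries lay above all of its oil libraries. It rose by 0.74 ± 0.11 after tamoxifen without Ezh1 (adjusted p = 0.0355), against 0.28 ± 0.11 with Ezh1 present (adjusted p = 0.241), and was 1.43-fold higher after combined loss than with neither lost (adjusted p = 0.0288). Ppm1d, the phosphatase Wip1 that reverses p53 signalling, was at -0.09 and -0.13 in Ezh1-present oil and at 0.22 and 0.20 in Ezh1-null oil, with 0.02 and -0.03, and 0.03 and -0.02, after tamoxifen. Its difference of 0.32 ± 0.08 in oil was called (adjusted p = 0.0407).

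The genes of growth arrest moved in different directions. Plk2, a polo-like kinase (gene ID 20620, mm10 chr13:110395044-110400843), lay at -0.10 and -0.23 in Ezh1-present oil, 0.38 and 0.51 in Ezh1-present tamoxifen, -1.65 and -1.65 in Ezh1-null oil and 0.10 and 0.52 in Ezh1-null tamoxifen. The Ezh1-null oil libraries stood far below the other 6. It rose by 1.97 ± 0.16 after tamoxifen without Ezh1 (adjusted p = 0.00849), against 0.61 ± 0.16 with Ezh1 present (adjusted p = 0.133), and after tamoxifen the Ezh1 genotypes differed by -0.13 ± 0.16 (adjusted p = 0.607). Plk3, its relative, was at -0.67 and -1.07 in Ezh1-present oil and between -0.14 and 0.37 in the other 6 libraries. Plk3 was higher without Ezh1 in oil by 0.99 ± 0.25 (adjusted p = 0.0418), with 0.00 change after tamoxifen in those cells. The Plk3 span overlaps that of Tctex1d4, and the strand setting of the counting is not given in the sources used here, so its reads may include the other gene's. Btg2, an antiproliferative cofactor of mRNA decay, was likewise lowest in Ezh1-present oil, at -0.44 and -0.76, with 0.27 and 0.09 in Ezh1-null oil. The difference in oil was 0.78 ± 0.18 (adjusted p = 0.0314), and tamoxifen changed Btg2 by -0.02 ± 0.18 without Ezh1. Psrc1, Gdf15, Ptprv and Epha2 were called in no comparison. Psrc1, a microtubule-associated protein, was at -0.49 and -0.47 in Ezh1-null oil and between -0.05 and 0.51 elsewhere. Epha2, a receptor for ephrins, spanned -3.41 to -0.27 between the 2 Ezh1-null oil libraries. The lower of these may lie at the floor, which could not be read from a single library. The change of Epha2 after tamoxifen without Ezh1, 2.91 ± 0.98, had an adjusted p of 0.211. Gdf15, a secreted stress cytokine, was at -1.47 and -0.35 in Ezh1-present oil and between -0.37 and 0.53 in the other libraries.

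**Figure D4:**
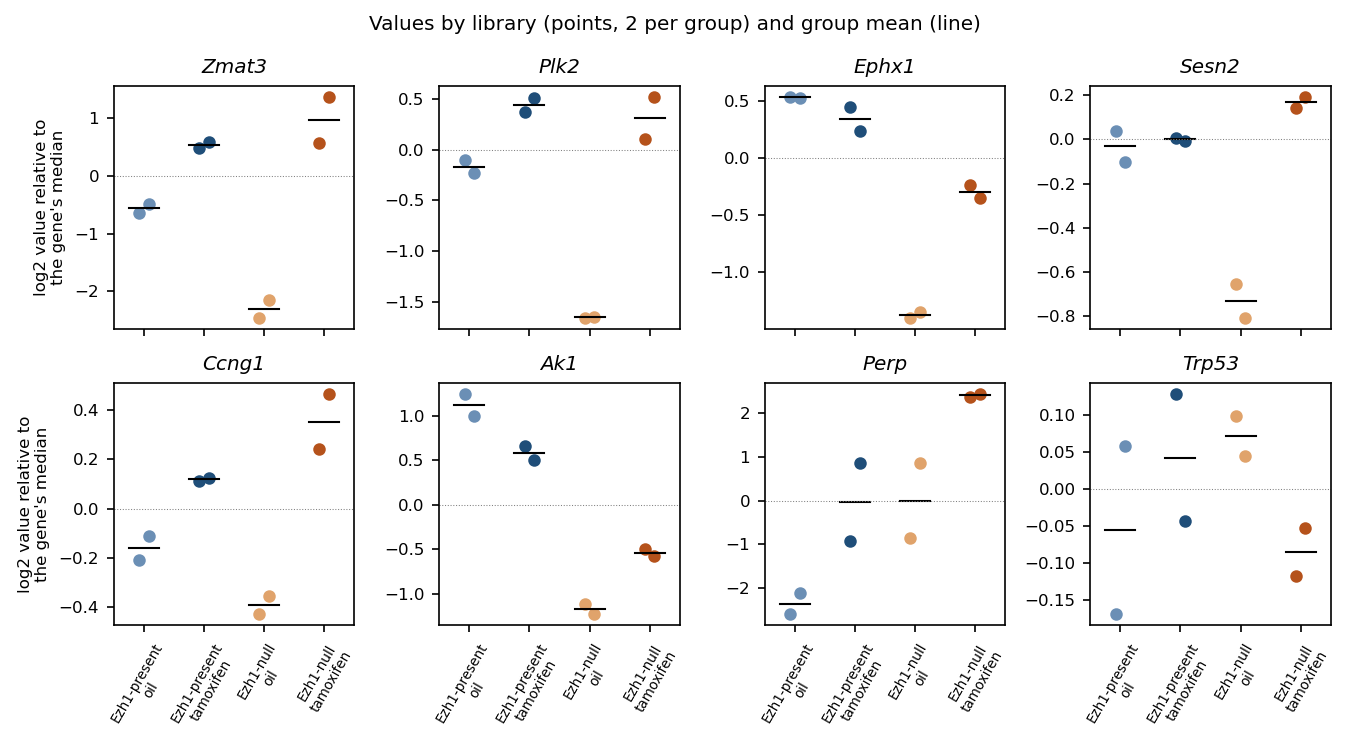
Log2 value relative to the gene's median (y axis, a scale of its own in each panel) in each of the 4 groups (x axis) for 8 genes; each point is 1 library and the line is the mean of the group's 2. Zmat3, Plk2, Ephx1, Sesn2, Ccng1 and Ak1 are lowest in Ezh1-null oil, Perp is highest in Ezh1-null tamoxifen, and the whole axis of Trp53 spans less than the gap between the Ezh1-null groups in Zmat3.

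Among the apoptosis genes, Zmat3, which encodes an RNA-binding zinc finger protein (gene ID 22401, mm10 chr3:32334794-32365665), lay at -0.65 and -0.48 in Ezh1-present oil, 0.48 and 0.57 in Ezh1-present tamoxifen, -2.45 and -2.15 in Ezh1-null oil and 0.57 and 1.36 in Ezh1-null tamoxifen. No oil library reached a tamoxifen library, and the Ezh1-null oil libraries were the lowest. Zmat3 rose by 3.26 ± 0.28 after tamoxifen without Ezh1 (adjusted p = 0.00899), against 1.10 ± 0.28 with Ezh1 present (adjusted p = 0.128). Combined loss left it higher than with neither lost by 1.53 ± 0.28 (adjusted p = 0.0194), a call that ended without either Ezh1-present oil library (0.0924 and 0.0736) and with only the compared groups (0.0815). Its span overlaps that of 4930429B21Rik, whose reads cannot be told apart here. Perp, a tetraspan membrane protein, was at -2.60 and -2.11 in Ezh1-present oil, -0.92 and 0.86 in Ezh1-present tamoxifen, -0.86 and 0.86 in Ezh1-null oil and 2.36 and 2.44 in Ezh1-null tamoxifen. In the groups that had lost 1 enzyme Perp lay on both sides of its median, and only the comparison of combined loss with neither lost was called, at 4.75 ± 0.78 (adjusted p = 0.0152). That call ended without any 1 of those 4 libraries (0.0624 to 0.0784).

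Trp53inp1, a stress-induced partner of p53, lay at -0.46 and -0.81 in Ezh1-present oil, -0.06 and 0.27 in Ezh1-present tamoxifen, 0.06 and -0.32 in Ezh1-null oil and 0.69 and 0.76 in Ezh1-null tamoxifen. It was higher after combined loss than with neither lost by 1.36 ± 0.21 (adjusted p = 0.0122), a call that ended without Ezh1-present oil replicate 2 or either Ezh1-null tamoxifen library (0.0575 to 0.0618). Fas, the death receptor, was at 0.88 and 0.79 in Ezh1-null tamoxifen and between -0.46 and 0.10 in the other 6 libraries. Fas was called in that comparison at 1.05 ± 0.22 (adjusted p = 0.0263), and its change after tamoxifen without Ezh1 was 0.95 ± 0.22 (adjusted p = 0.0962). Ei24, a membrane protein of the endoplasmic reticulum, was at -0.34 and -0.44 in Ezh1-present oil, 0.02 and 0.04 in Ezh1-present tamoxifen, -0.18 and -0.02 in Ezh1-null oil and 0.27 and 0.27 in Ezh1-null tamoxifen, and combined loss differed from neither lost by 0.66 ± 0.09 (adjusted p = 0.0108). Apaf1, the scaffold of the apoptosome, moved otherwise: it was at -0.16 and -0.16 in Ezh1-present oil and 0.31 and 0.42 in Ezh1-null oil, a difference of 0.53 ± 0.10 (adjusted p = 0.0211), with -0.23 and -0.07, and 0.17 and 0.07, after tamoxifen.

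Bax, Tnfrsf10b, Eda2r, Phlda3, Aen and Triap1 were called in no comparison. Aen, a nuclease, and Triap1, a mitochondrial lipid carrier, lay between -0.31 and 0.20 in all 8 libraries, and Tnfrsf10b, the receptor of the ligand TRAIL, between -0.53 and 0.40. Bax, the pore-forming death effector, was lowest in Ezh1-null oil at -0.55 and -0.36 and changed by 0.49 ± 0.16 after tamoxifen there (adjusted p = 0.206). Phlda3, an inhibitor of Akt, was at -0.45 and -2.02 in Ezh1-null oil and at 0.65 and 0.93 after tamoxifen, and its change of 2.03 ± 0.51 had an adjusted p of 0.124. Eda2r, a receptor of the tumour necrosis factor family, was the 1 target with a readable floor, where at least 2 libraries tied. It was at the floor in Ezh1-present oil replicate 1 and both Ezh1-null oil libraries. Its normalized read counts were 1 and 7.00 in Ezh1-present oil, 25.4 and 14.1 in Ezh1-present tamoxifen, 1 and 1 in Ezh1-null oil and 4.43 and 8.71 in Ezh1-null tamoxifen. Against 3 reads per library in Ezh1-null oil it was at least 1.74-fold higher after tamoxifen, for counting error only. The model's adjusted p for Eda2r was 0.244 there and 0.194 with Ezh1 present.

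DNA repair and nucleotide supply showed no common direction. Zfp365, which encodes a zinc finger protein linked to genome stability, lay at -0.35 and -0.63 in Ezh1-present oil, 0.35 and 0.41 in Ezh1-present tamoxifen, -4.43 and -2.24 in Ezh1-null oil and 0.41 and 1.05 in Ezh1-null tamoxifen. Its Ezh1-null oil libraries were the lowest but lay further apart from each other than its other pairs did. The lower of them may lie at the floor, which could not be read from a single library. It was lower without Ezh1 in oil by 2.85 ± 0.71 on the log2 scale (adjusted p = 0.0423), and its change of 4.06 ± 0.71 after tamoxifen without Ezh1 had an adjusted p of 0.0540. Xpc, which recognises damaged DNA, lay at 0.62 and 0.46 in Ezh1-present oil, 0.19 and -0.08 in Ezh1-present tamoxifen, 0.08 and -0.08 in Ezh1-null oil and -0.23 and -0.59 in Ezh1-null tamoxifen. It was lower after combined loss than with neither lost, by -0.95 ± 0.17 (adjusted p = 0.0193). Rrm2b, the p53-inducible subunit of ribonucleotide reductase, was at 0.28 and 0.25 in Ezh1-present oil, 0.09 and 0.17 in Ezh1-present tamoxifen, -0.32 and -0.09 in Ezh1-null oil and -0.22 and -0.42 in Ezh1-null tamoxifen. It was lower without Ezh1 in oil (-0.47 ± 0.12, adjusted p = 0.0464) and after combined loss (-0.58 ± 0.12, adjusted p = 0.0278). Ercc5, the endonuclease XPG, went the other way: it was at -0.27 and -0.31, 0.27 and 0.47, -0.31 and -0.87, and 0.50 and 0.75 in the 4 groups in that order. Both tamoxifen groups of Ercc5 lay above both oil groups, and combined loss differed from neither lost by 0.92 ± 0.21 (adjusted p = 0.0354). The damage sensor Ddb2, whose span overlaps that of Acp2, and the bypass polymerase Polk were called in no comparison and lay between -0.32 and 0.50 in all 8 libraries.

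Among the stress and metabolism genes, Ephx1 was called in 4 comparisons and Ak1 in 3. Ephx1, the microsomal epoxide hydrolase (gene ID 13849, mm10 chr1:180989556-181017495), lay at 0.54 and 0.53 in Ezh1-present oil, 0.45 and 0.24 in Ezh1-present tamoxifen, -1.39 and -1.34 in Ezh1-null oil and -0.24 and -0.34 in Ezh1-null tamoxifen. All 4 Ezh1-null libraries were below all 4 Ezh1-present ones. Ephx1 rose by 1.08 ± 0.11 after tamoxifen without Ezh1 (adjusted p = 0.0129), against -0.19 ± 0.11 with Ezh1 present (adjusted p = 0.380), and after combined loss it was still 1.77-fold below the level with neither lost (adjusted p = 0.00836). Ak1, adenylate kinase (gene ID 11636, mm10 chr2:32621758-32635058), lay at 1.25 and 1.00, 0.66 and 0.50, -1.11 and -1.23, and -0.50 and -0.57 in the 4 groups in the same order. Its Ezh1-null libraries also lay below all Ezh1-present ones. After tamoxifen Ak1 changed by 0.64 ± 0.13 without Ezh1 (adjusted p = 0.0706) and by -0.54 ± 0.13 with it (adjusted p = 0.116), and after combined loss it was 3.15-fold below the level with neither lost (adjusted p = 0.00317).

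Sesn2, a sestrin that restrains mTORC1 when amino acids are scarce (gene ID 230784, mm10 chr4:132492807-132510499), lay at 0.04 and -0.10 in Ezh1-present oil, 0.01 and -0.01 in Ezh1-present tamoxifen, -0.65 and -0.81 in Ezh1-null oil and 0.14 and 0.19 in Ezh1-null tamoxifen. The Ezh1-null oil pair lay below the other 6 libraries and the Ezh1-null tamoxifen pair above them. Sesn2 rose by 0.90 ± 0.10 after tamoxifen without Ezh1 (adjusted p = 0.0182), against 0.03 ± 0.10 with Ezh1 present (adjusted p = 0.890). Combined loss then differed from neither lost by 0.20 (95% interval -0.06 to 0.45, adjusted p = 0.211). Its relative Sesn1 lay between -0.14 and 0.27 in all 8 libraries and was called in no comparison. Abhd4, a lipase of N-acyl phospholipids, was at -0.44 and -0.52 in Ezh1-present oil, -0.04 and -0.02 in Ezh1-present tamoxifen, 0.33 and 0.02 in Ezh1-null oil and 0.41 and 0.64 in Ezh1-null tamoxifen. It was higher without Ezh1 in oil (0.66 ± 0.14, adjusted p = 0.0289) and after combined loss (1.01 ± 0.14, adjusted p = 0.0104). Slc19a2, a thiamine transporter, was at -0.59 and -0.42, 0.01 and 0.21, -0.30 and -0.01, and 0.37 and 0.83 in the 4 groups in that order, with a difference of 1.11 ± 0.20 after combined loss (adjusted p = 0.0190). Dcxr, a carbonyl reductase, was called in no comparison and was at 0.41 and 0.28 in Ezh1-null tamoxifen and between -0.18 and 0.06 elsewhere.

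The remaining pair were Def6 and Pvt1. Def6 lay between -0.32 and -0.13 in the 4 Ezh1-present libraries and between 0.13 and 0.19 in the 4 Ezh1-null ones, with no overlap. It was higher without Ezh1 in oil by 0.47 ± 0.09 (adjusted p = 0.0196) and after combined loss by 0.42 ± 0.09 (adjusted p = 0.0286). Pvt1, a long noncoding RNA gene next to Myc, was at -0.71 and 0.12 in Ezh1-present oil, 0.30 and 0.90 in Ezh1-present tamoxifen, -1.54 and -1.54 in Ezh1-null oil and -0.06 and 0.06 in Ezh1-null tamoxifen. It was lower without Ezh1 in oil by -1.25 ± 0.33 (adjusted p = 0.0480), and its span overlaps that of H2afy3.

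The rest of the pathway was read from 3 further lists. Of 23 other p53 targets, 2 rose after tamoxifen without Ezh1: Bbc3, which encodes the killer protein Puma, by 1.25 ± 0.10 (adjusted p = 0.00794) and Pmaip1, which encodes Noxa, by 0.71 ± 0.10 (adjusted p = 0.0355). Bbc3 stayed called without any 1 library, while Pmaip1 lost its call without each of the 8 (0.0547 or more). After quantile normalization Pmaip1 had an adjusted p of 0.773 in limma, while Bbc3 stayed called. With Ezh1 present 0 of the 23 were called (1 at an unadjusted p under 0.05 in limma). Of all rows, 3.4% were called after tamoxifen without Ezh1 and 0.903% with Ezh1 present. With Ezh1 present 20.6% of all rows had an unadjusted p under 0.05 in limma. Bbc3 lay at -0.16 and -0.06 in Ezh1-present oil, 0.12 and 0.06 in Ezh1-present tamoxifen, -0.81 and -0.92 in Ezh1-null oil and 0.45 and 0.32 in Ezh1-null tamoxifen. Pmaip1 was at 0.43 and 0.62, 0.42 and 0.43, -1.19 and -1.06, and -0.42 and -0.42 in that order. Cdkn1a, the inhibitor p21 and the best known arrest gene of the pathway, was at -0.65 and -0.86 in Ezh1-null oil and between -0.06 and 0.37 elsewhere. All 3 were lowest in Ezh1-null oil and were called lower without Ezh1 there (Bbc3 -0.76, adjusted p = 0.00778; Pmaip1 -1.65, adjusted p = 0.00239; Cdkn1a -0.72, adjusted p = 0.0362), while the change of Cdkn1a after tamoxifen without Ezh1, 0.98 ± 0.17, had an adjusted p of 0.0529. The call of Cdkn1a in oil ended without any of the oil or Ezh1-null tamoxifen libraries (0.0517 to 0.148). In oil, 4 of the 23 were higher and 5 lower without Ezh1, where 24.9% of all rows were called. After tamoxifen 1 was higher and 1 lower without Ezh1, where 12.2% of all rows were called. After combined loss 5 were higher and 2 lower, where 23.4% of all rows were called.

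Among 24 regulators of p53, Cdkn2a stood apart. It encodes p16 and, from an alternative first exon, Arf, which blocks Mdm2, and a value for the gene does not separate them. Cdkn2a lay at -0.98 and -1.26 in Ezh1-present oil, 1.40 and 0.98 in Ezh1-present tamoxifen, -1.19 and -1.44 in Ezh1-null oil and 3.10 and 3.29 in Ezh1-null tamoxifen. It rose by 2.31 ± 0.20 after tamoxifen with Ezh1 present (adjusted p = 0.0276) and by 4.51 ± 0.20 without (adjusted p = 0.00264), and was the 1 regulator called in each. The first of these calls was kept only when Ezh1-present tamoxifen replicate 1 was left out (0.0510 to 0.115 otherwise), and the second was kept without any 1 library. The difference between those changes, 2.20 ± 0.28, had an adjusted p of 0.0663. Cdkn2a did not share the low level of Zmat3 or Plk2 in Ezh1-null oil, where it differed from Ezh1-present oil by -0.20 ± 0.20 (adjusted p = 0.515). Mdm4, the other main inhibitor of p53, was called in no comparison. In oil 3 regulators were higher without Ezh1 (Bcl6, Hipk2 and Ing1) and Ep300 was lower, 4 of 24 where 24.9% of all rows were called. The call of Ep300 ended without any 1 library (0.0522 to 0.133), and that of Ing1 without either Ezh1-present oil library or Ezh1-null oil replicate 2 (0.0660 to 0.0815). After tamoxifen Cdkn2a, Bcl6 and Hipk2 were higher and 0 lower, 3 of 24 where 12.2% of all rows were called. There Cdkn2a lost its call without either Ezh1-null tamoxifen library (0.0513 and 0.0555), Hipk2 without either Ezh1-present tamoxifen library or Ezh1-null tamoxifen replicate 2 (0.0529 to 0.0704), and Bcl6 without any library but the 2 of Ezh1-null oil (0.0551 to 0.112). After combined loss those 3 were higher and Atm, Trp53bp1, Ep300 and Trim24 lower, 7 of 24 where 23.4% of all rows were called. The calls of these 4 lower genes were lost when single Ezh1-present oil or Ezh1-null tamoxifen libraries were left out, and those of Ep300 and Trim24 also without either Ezh1-null oil library (0.0546 to 0.131 over the 4 genes).

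Of 20 cell cycle genes that p53 is known to repress, 0 were called after tamoxifen in either genotype. With Ezh1 present 8 had an unadjusted p under 0.05 in limma, against 20.6% of all rows. Without Ezh1 2 had, against 17.9% of all rows. The median change of the 20 was 0.25 with Ezh1 present, where 17 were above 0, against 51.9% of all rows. It was -0.12 without Ezh1, where 5 were above 0, against 48.3% of all rows. Their difference between genotypes was below 0 for all 20, with a median of -0.35, where 49.7% of all rows were above 0. None was called, and 7 had an unadjusted p under 0.05 in limma, against 14.9% of all rows. After combined loss Bub1b was called lower (-0.74, adjusted p = 0.00723 in limma) and Ccnb2 higher, where 23.4% of all rows were called. Bub1b kept that call in 15 of 15 alternative runs and Ccnb2 in 4. For Ezh1 loss after tamoxifen Bub1b was the 1 gene called, where 12.2% of all rows were. It was lower there (-0.53, adjusted p = 0.0271 in limma), a call kept in 7 of 15 runs. For Ezh1 loss in oil 4 of the 20 were called, where 24.9% of all rows were. Without Ezh1 in oil Ccnb2, Cdc25a and Mad2l1 were higher and Bub1b lower, and each of these calls ended without at least 1 oil library, Ezh1-present oil replicate 1 among them (0.0876 for Ccnb2, 0.117 for Cdc25a, 0.0587 for Bub1b, and higher than these for Mad2l1).

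Markers of other cells also differed between the groups, not all of them beyond the share of all rows. Of all rows, 24.9% were called for Ezh1 loss in oil, 12.2% for Ezh1 loss after tamoxifen and 23.4% for combined loss. After tamoxifen 0.903% were called with Ezh1 present and 3.4% without it. The shares of erythroid and of stromal markers called for Ezh1 loss in oil, 22.2% each, lay near that of all rows. The mean value of 11 T and NK cell markers ran from -2.15 to -2.13 in Ezh1-present oil, 0.86 to 1.87 in Ezh1-present tamoxifen, -0.66 to -0.65 in Ezh1-null oil and 0.52 to 0.61 in Ezh1-null tamoxifen. After tamoxifen with Ezh1 present all 11 rose, with a median change of 4.08. All 11 had an unadjusted p under 0.05 in limma there, against 20.6% of all rows, but 2 were called. Without Ezh1 1 was called after tamoxifen. For Ezh1 loss in oil 5 of the 11 were called higher, and after combined loss 5. The mean of 8 B cell markers ran from -2.08 to -1.51, -1.61 to -1.24, 2.17 to 2.95 and 1.17 to 1.97 in the same order of groups, and 6 of 8 were higher without Ezh1 in oil. The 10 neutrophil markers had means of -2.86 to -2.52, -1.71 to -0.12, 0.53 to 1.07 and 0.38 to 1.74, with 6 of 10 higher without Ezh1 in oil and 7 after combined loss. The 9 erythroid markers had means of -2.07 to -1.22, -0.29 to 2.08, 0.16 to 1.56 and -0.23 to 0.28, with 2 of 9 higher without Ezh1 in oil and 0 called after tamoxifen. The 8 megakaryocyte markers had means of -0.62 to -0.19, 0.80 to 2.33, -1.06 to -0.72 and 0.04 to 0.13, the 8 monocyte and macrophage markers -0.11 to -0.02, 0.70 to 0.84, -0.38 to 0.05 and -0.31 to 0.04, and the 9 stromal and endothelial markers 0.12 to 0.45, 0.85 to 1.98, -0.95 to -0.83 and -0.43 to -0.20. Without Ezh1 in oil, 1 of the megakaryocyte markers was called higher and 2 lower, 2 of the monocyte and macrophage markers higher and 4 lower, and 0 of the stromal ones higher and 2 lower. The monocyte and macrophage markers were called 2 higher and 4 lower without Ezh1 after tamoxifen as well, and 1 of the 8 rose after tamoxifen in each genotype. At the floor in both libraries of a group were Cd3e and Pax5 in Ezh1-present oil and Ppbp in Ezh1-null oil. The part of these cells in the changes of the p53 targets was not tested.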

How the data were processed

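RNA was sequenced from 8 libraries (TruSeq, 1 µg of total RNA, per the labels' protocols), with mm10 as the build per the submitters' processing notes. The aligner, the counter, its strand setting and the scaling were not given in the sources used here. Per the file headers, the authors kept rows whose raw data lay between percentiles 20 and 100. The deposited values per library are log2 normalized values, and tests on the table showed them to be centred on each row's median (largest deviation 9.55e-07) with a floor at a normalized count of 1. The authors also deposited log2 changes (equal to differences of the group means within 5.4e-07), absolute fold changes as a ratio, and signed fold changes (a score in which falls are negative). None of these is printed here. The smaller deposited table repeats rows of the larger one and was not used.

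A floor was read where at least 2 libraries tied at a row's lowest value, within 2e-06. A single library at the floor could thus not be seen. Of all rows, 18051 had 2 or more libraries above it and were fitted, while 12530 with none above and 993 with a single library above were left out. Limma 3.58.1 in R 4.3.3 fitted 1 coefficient per group without a block, with residual degrees of freedom of 4 and prior degrees of freedom of 1.24, and Benjamini-Hochberg adjustment over all rows. The fit was tested on simulated data. Python 3.11.15, pandas 2.3.3 and matplotlib 3.10.9 made the tables and plots. A test on counts was not made, since depth is unknown beyond the value of 1 read. Alternatives were quantile normalization, median centring, other filters, only the compared groups, robust moderation, a replicate block and each library left out.

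The members and gene lists were chosen with earlier results of these data known. The rule for named genes gives every member, with values in every library for those called, and from other lists the called genes and Cdkn2a, Mdm4, Cdkn1a, Bbc3, Pmaip1, Ezh1 and Ezh2. Of the other p53 targets, Trp53cor1 had no row, nor had Trbc2 of the T and NK markers. Members were matched by symbol, 38 of 38.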

Additional observations from a re-analysis of the deposited data

How the results depend on the processing

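The 86 calls of single genes of the p53 lists, Ezh1 and Ezh2 kept their direction in all 1290 recomputed results, and 888 of these were still called. The direction could change only with quantile normalization, median centring or a compared library left out. The other runs keep the same group means, so the direction there was fixed in advance. The single gene results were also chosen because they were called. Genes that were not called were not recomputed one by one. Leaving out a library moved the number of the 38 genes called from 0 to 0 after tamoxifen with Ezh1 present, 2 to 7 without Ezh1, 4 to 10 for Ezh1 loss in oil, 0 to 2 after tamoxifen, 0 to 0 for the interaction and 2 to 16 for combined loss. The medians then ran from 0.10 to 0.24, 0.41 to 0.51, -0.20 to -0.0076, 0.13 to 0.23, 0.25 to 0.40 and 0.27 to 0.40 in that order. Such a fit leaves 1 arm with 1 library, assumed to vary like the others. For the counts of calls under alternative fits, here and above, the share of all rows called in the same fit is not given. A changed count can therefore not be read as particular to the p53 targets. With only the compared groups, where fewer residual degrees of freedom are left, the calls were 1 without Ezh1 after tamoxifen, 5 for Ezh1 loss in oil, 0 after tamoxifen and 9 for combined loss. Quantile normalization gave medians of 0.12 with Ezh1 present, 0.33 without, -0.13 for Ezh1 loss in oil and 0.29 for combined loss. With all 8 libraries above the floor, which leaves out Eda2r, the medians were -0.13 in oil, 0.23 after tamoxifen, 0.33 for the interaction and 0.29 for combined loss, and 4 genes were called for Ezh1 loss after tamoxifen. The cause of the other shifts was not tested. Eda2r was at the floor in 3 libraries, where low depth and low expression cannot be told apart.

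No large effect shared by replicate number was visible: the differences between replicates correlated between groups at -0.0624 to 0.0785. This cannot show that libraries with the same number are unpaired, since a pairing may leave no large shared effect. With the replicate block the calls were 0 with Ezh1 present, 4 without, 11 for Ezh1 loss in oil, 1 after tamoxifen, 0 for the interaction and 12 for combined loss, and of 86 single gene calls 63 were held.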
